A study of Rattus norvegicus with 10 samples.

Results

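In neonatal rat cardiomyocytes, 63 genes were expressed far more weakly with the TEAD-binding form of activated YAP, YAP5SA, than with its TEAD-binding mutant, YAP5SA-S94A. They were chosen by their levels in the 4 RNA-seq libraries. A gene was taken when it had at least 5 TPM in both YAP5SA-S94A libraries and when the lower of these values was at least 4 times the higher YAP5SA value. TPM (a level per transcript length, with each library scaled to an equal sum) allows levels of different genes to be compared. Of 39784 gene names in the tables, 79 met these values. Leaving out 16 provisional LOC and RGD names gave the 63, or 0.158% of all names. Since the comparison itself chose these genes, their levels in it are a description and carry no test.

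The series set 2 forms of YAP against each other in wild-type heart cardiomyocytes cultured in M199 medium with fetal bovine serum. The cells carried Ad-Xon-YAP5SA or Ad-Xon-YAP5SA-S94A, as the labels name the treatments, with 2 RNA-seq libraries for each form made from poly(A) RNA with strand kept. The series' 6 CUT&RUN samples were left aside and are not analysed here. No RNA-seq library of cells without a YAP construct was used, so each difference is one between the forms and does not say which of them departed from untreated cells. The libraries are labelled biological replicates with no word on separate cultures, so p-values measure the spread between these samples, which may be technical.

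YAP is a coactivator that the Hippo kinases hold in the cytoplasm by phosphorylation, and it reaches DNA mainly through TEAD transcription factors. In YAP5SA, inhibitory serines are changed to alanine, which keeps the protein in the nucleus. The S94A change disrupts the contact with TEAD. In the heart, YAP is known for cardiomyocyte proliferation before birth, and forced activity is known to take cardiomyocytes back toward an immature state.

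The libraries held 5.10 and 4.02 gigabases of aligned sequence for YAP5SA replicates 1 and 2, against 5.02 and 4.97 gigabases for the YAP5SA-S94A replicates. All 12 cardiomyocyte markers examined were expressed, and their summed level was 35764 and 36440 TPM in YAP5SA, against 35688 and 35861 TPM in YAP5SA-S94A. These near-equal sums hold shifts in both directions. In the fit described next, 6 of the 12 were called lower in YAP5SA and 2, Actc1 and Nppa, higher. Of 21 established YAP/TEAD targets tested with limma, a linear model with moderated variances fitted on log2(TPM + 1), 16 rose in YAP5SA and 1 fell at an adjusted p under 0.05. Among all 13420 names tested, 32.9% were called, 17.4% higher and 15.5% lower in YAP5SA, or 2083 lower. Without YAP5SA-S94A replicate 1 or 2 the genes called lower in YAP5SA numbered 1312 and 1314. Other marker sums also differed. Epicardial and mesothelial markers summed to 257 and 229 TPM in YAP5SA, against 66.8 and 60.1 TPM in YAP5SA-S94A. Krt18 made up most of the YAP5SA sum, with means of 133 TPM in YAP5SA and 5.02 TPM in YAP5SA-S94A. Of the 9 tested, 5 were called higher, Krt18 among them, and none lower. Wt1, Tbx18 and Upk1b of that list had lower means in YAP5SA and were not called. Lymphocyte markers summed to 37.7 and 37.3 TPM in YAP5SA, against 8.30 and 10.5 TPM in YAP5SA-S94A. Cd2 alone made that difference, and without it, a sum added after seeing the data, they came to 7.69 and 7.11 TPM in YAP5SA, against 8.30 and 10.5 TPM in YAP5SA-S94A. Fibroblast markers (8706 and 6973 TPM in YAP5SA, against 7316 and 6974 TPM in YAP5SA-S94A) were close in sum, and erythroid markers stayed under 7 TPM. Col1a1, Col1a2 and Col3a1 made up most of the fibroblast sum. Of the 10 fibroblast markers tested, Dcn and Postn were called lower and Ogn higher. Smooth muscle markers summed to 1592 and 1319 TPM in YAP5SA, against 1628 and 1647 TPM in YAP5SA-S94A. Des made up most of that sum and was called lower, with 975 and 778 TPM in YAP5SA, against 1241 and 1259 TPM in YAP5SA-S94A. Cnn1 and Mcam were called higher, Mcam with 201 and 194 TPM in YAP5SA, against 84.6 and 78.9 TPM in YAP5SA-S94A. The rest of that list were not called.

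As a whole, the 63 genes made up 509 and 452 TPM in the YAP5SA libraries, against 3175 and 3180 TPM in the YAP5SA-S94A libraries. Their median level was 3.07 TPM in YAP5SA and 21.7 TPM in YAP5SA-S94A. Levels with YAP5SA-S94A spanned a wide range, with 9 genes at 100 TPM or more and 11 under 10 TPM. In YAP5SA, 10 genes lay under 1 TPM in both libraries, so their fold differences rest on few reads. The median fold was 6.32 over the 62 genes that have one, and 18 genes were at least 10-fold lower or, in the case of Dusp13a, listed at 0 in YAP5SA. The same values were met by 0.589% of the tested names before unnamed genes were left out, a share that the rule itself fixes. A mirrored rule for genes higher in YAP5SA found 203. In bulk RNA, fewer cells of a type and less RNA per cell cannot be told apart.

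**Figure D1:**
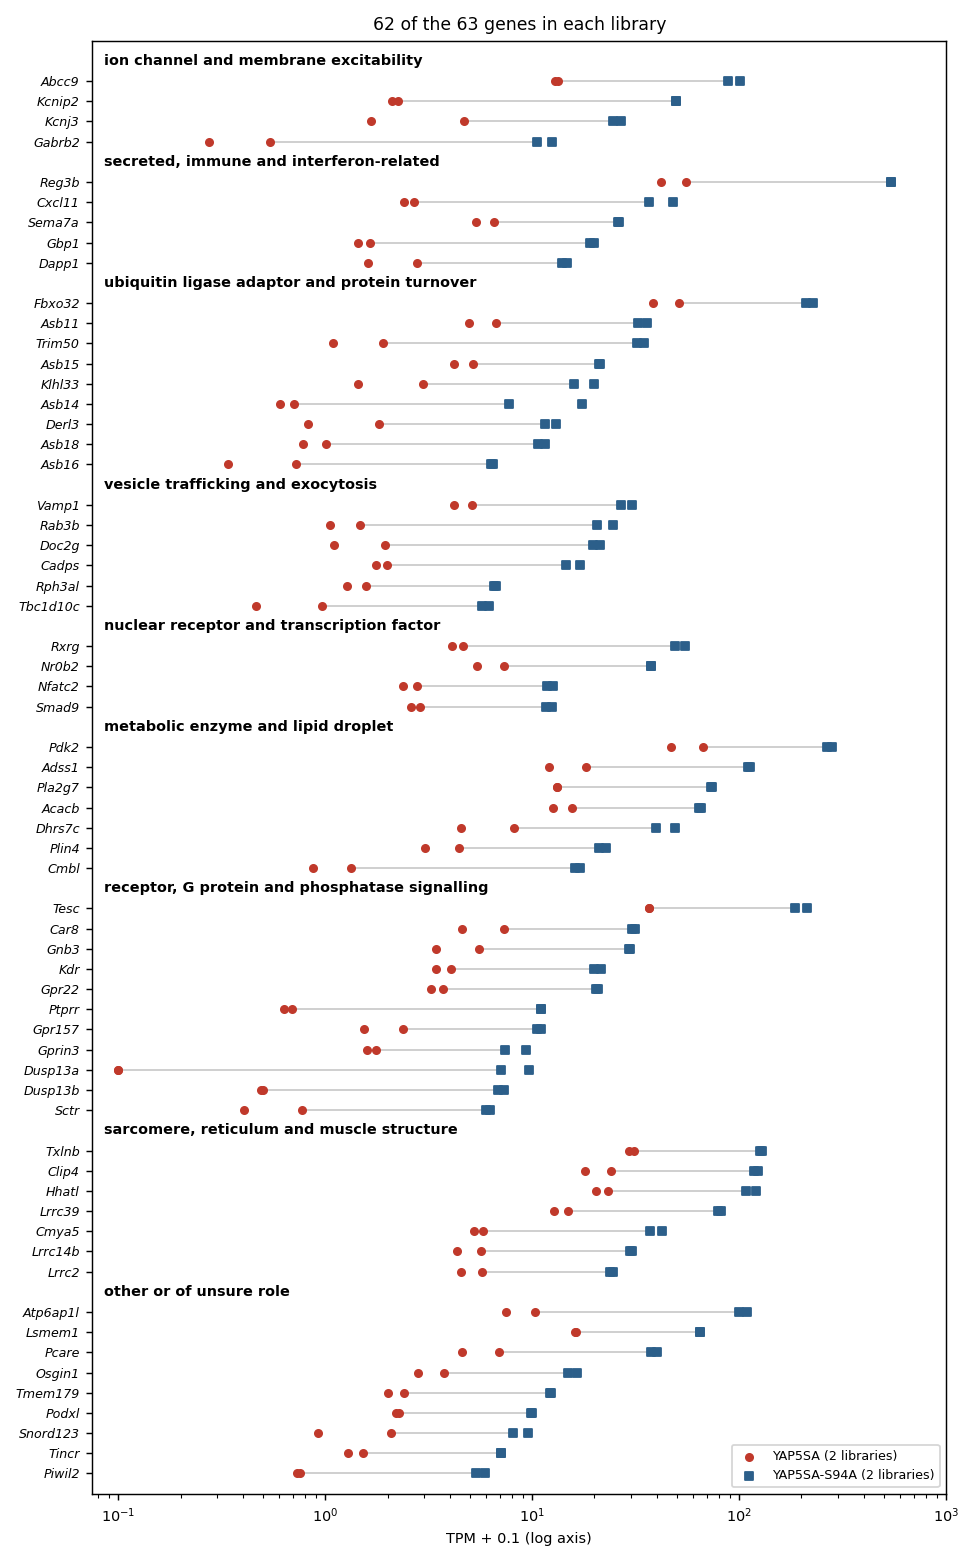
Level of 62 of the 63 genes in every library, as TPM + 0.1 on a log axis, grouped by role and ordered by level in YAP5SA-S94A. Circles are the 2 YAP5SA libraries, squares the 2 YAP5SA-S94A libraries, and the grey line spans the gap between the groups, which is at least 4-fold in TPM for every gene because the rule required it.

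The genes nearest the threshold lie close together. Just inside it were Pdk2, Lsmem1 and Sema7a, whose lowest YAP5SA-S94A value was 4.0008, 4.001 and 4.0066 times the highest YAP5SA value. Just outside were Kbtbd12, Prune2 and Lrrc27, at 3.968, 3.951 and 3.918 times. On the side of the minimum level, Piwil2 was inside with 0.631 and 0.654 TPM in YAP5SA, against 5.25 and 5.82 TPM in YAP5SA-S94A. Tmem163 was outside with 0.430 and 0.323 TPM in YAP5SA, against 6.77 and 4.62 TPM in YAP5SA-S94A. Values ran on across both thresholds without a gap.

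**Figure D2:**
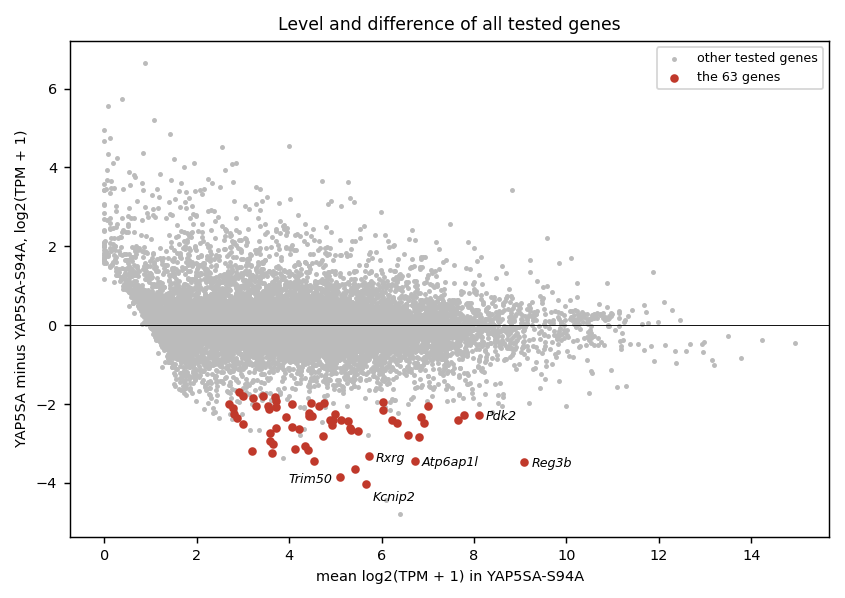
Mean level in YAP5SA-S94A, as log2(TPM + 1), against the difference in log2(TPM + 1), YAP5SA minus YAP5SA-S94A, for the 13420 tested names. The 63 genes are in red at the lower edge, with Reg3b at a mean of 543 TPM in YAP5SA-S94A the most abundant of them.

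Membrane excitability genes showed the widest differences. Kcnip2 encodes KChIP2, the auxiliary subunit that the transient outward potassium current of heart muscle depends on. It lies on chr1:244641147-244664939 of rn7, the rat build that the tables use. Kcnip2 had 2.01 and 2.14 TPM in YAP5SA, against 49.5 and 49.5 TPM in YAP5SA-S94A, a 23.9-fold lower mean. Replicates of each form lay close together. Its relatives Kcnip1, Kcnip3 and Kcnip4 were under 1 TPM in every library, so Kcnip2 was the one gene of that name family above 1 TPM. The pore-forming partners Kcnd2 and Kcnd3 were not called different. Kcnd2 had 3.82 and 2.51 TPM in YAP5SA, against 3.34 and 3.44 TPM in YAP5SA-S94A (limma adjusted p = 0.795). Kcnd3 had 7.21 and 7.03 TPM in YAP5SA, against 4.55 and 5.50 TPM in YAP5SA-S94A (limma adjusted p = 0.112).

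Gabrb2 encodes the beta 2 subunit of the GABA-A receptor, a ligand-gated chloride channel best known from neurons. Gabrb2 had 0.439 and 0.174 TPM in YAP5SA, against 12.3 and 10.5 TPM in YAP5SA-S94A, the largest fold of the set at 37.1, with both YAP5SA values under 0.5 TPM. None of the 4 other ligand-gated channel subunits tested was called by limma, 1 had an unadjusted p under 0.05 and was lower in YAP5SA, and their median log2 difference was -0.29. Without YAP5SA replicate 2, 1 of the 4 was called lower. Kcnj3, a subunit of the acetylcholine-activated potassium channel, had 4.57 and 1.57 TPM in YAP5SA, against 26.8 and 24.6 TPM in YAP5SA-S94A. Its YAP5SA replicates differed widely, and the rule itself required both to lie below every YAP5SA-S94A value. Abcc9 encodes SUR2, the sulfonylurea receptor of the ATP-sensitive potassium channel of muscle. Abcc9 had 12.7 and 13.2 TPM in YAP5SA, against 88.5 and 101 TPM in YAP5SA-S94A, 7.31-fold lower.

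The pore subunits that pair with SUR2 are outside the set. Kcnj11 fell, with 15.8 and 11.3 TPM in YAP5SA, against 28.3 and 29.1 TPM in YAP5SA-S94A (log2 difference -1.04, limma adjusted p = 0.00408). Kcnj8 was at 5.45 and 3.11 TPM in YAP5SA, against 4.37 and 5.196 TPM in YAP5SA-S94A (limma adjusted p = 0.669). Abcc8, the gene of the other sulfonylurea receptor SUR1, rose, with 17.5 and 14.5 TPM in YAP5SA, against 7.37 and 5.62 TPM in YAP5SA-S94A (log2 difference 1.19, limma adjusted p = 0.00314). Abcc9 and Abcc8 therefore differed in opposite directions. Of the 19 other potassium channel genes tested, 5 fell and 3 rose, where 15.5% of all tested names fell and 17.4% rose. The median log2 difference of the 19 was -0.28, against 0.0001 over all tested names. The 5 were Kcnk3, Kcnh2, Kcnj11, Kcnj2 and Kcne4, of which 3 calls were left without YAP5SA-S94A replicate 2. Kcnk3, a background potassium channel, had 17.7 and 14.2 TPM in YAP5SA, against 62.9 and 63.1 TPM in YAP5SA-S94A (limma adjusted p = 9.55e-05). Markers of the cardiac conduction system moved the same way, with summed levels of 66.6 and 45.7 TPM in YAP5SA, against 93.9 and 97.2 TPM in YAP5SA-S94A, and Tbx3, Cacna1g, Gja5 and Tbx5 called lower among 6 of 10 tested. Isl1 and Cpne5 of that list were under 0.5 TPM in every library. The part of such cells in the channel differences was not tested.

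Protein turnover was represented by 9 genes, 5 of them from the Asb family. Asb proteins carry ankyrin repeats, which bind a substrate, and a SOCS box, which docks onto a cullin ubiquitin ligase. Asb14 had 0.610 and 0.505 TPM in YAP5SA, against 7.62 and 17.2 TPM in YAP5SA-S94A. It was the only member whose YAP5SA-S94A replicates differed by more than 1.5-fold. Asb14 overlaps Appl1 on the opposite strand over 4757 of its 27693 bases, and Appl1 had 12.9 and 15.6 TPM in YAP5SA, against 12.8 and 14.1 TPM in YAP5SA-S94A. Asb16 had 0.240 and 0.626 TPM in YAP5SA, against 6.24 and 6.36 TPM in YAP5SA-S94A. Asb18 had 0.907 and 0.682 TPM in YAP5SA, against 11.5 and 10.6 TPM in YAP5SA-S94A. Both are nearly silent with YAP5SA and modest with YAP5SA-S94A. Asb11 had 6.58 and 4.85 TPM in YAP5SA, against 32.3 and 35.9 TPM in YAP5SA-S94A. Asb15 had 5.10 and 4.09 TPM in YAP5SA, against 21.2 and 21.0 TPM in YAP5SA-S94A.

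The families were looked up after the members were known and are given as values. The tables listed 18 Asb genes, 17 of them with a mean of at least 1 TPM. In 12 of these 17 the YAP5SA values lay wholly below the YAP5SA-S94A values, 5 of which the rule chose, and in 3 they lay wholly above. Such separation downward was found in 33.8% of all tested names. For the 5 members the rule fixed it, so the count cannot be set evenly beside that share, and the difference was not tested. Asb5, Asb9 and Asb10 had means under 1 TPM in YAP5SA and passed the level filter through YAP5SA-S94A. Asb2, the most abundant, had 96.8 and 80.5 TPM in YAP5SA, against 180.3 and 195 TPM in YAP5SA-S94A. Asb10 was close to absent with YAP5SA, at 0 and 0.02 TPM, against 3.30 and 3.59 TPM in YAP5SA-S94A, too low for the rule. Asb12 stood on the other side, at 20.9 and 25.3 TPM in YAP5SA, against 11.9 and 13.5 TPM in YAP5SA-S94A.

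**Figure D3:**
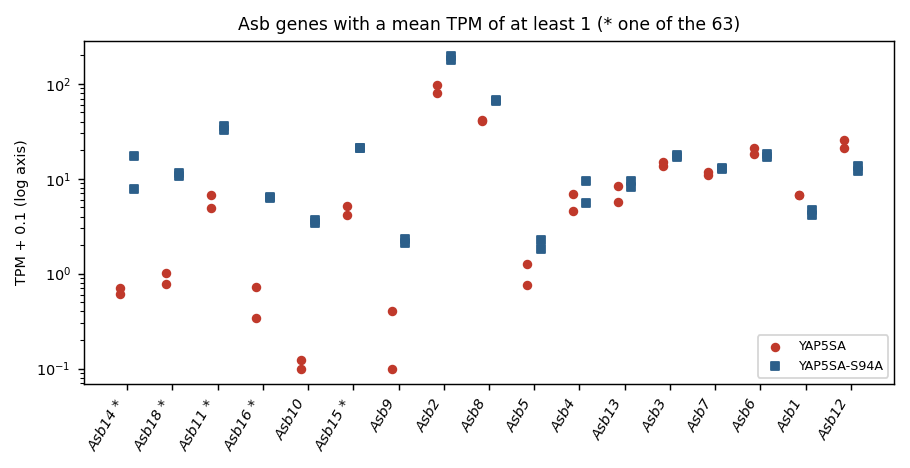
Levels of the 17 Asb genes with a mean of at least 1 TPM, as TPM + 0.1 on a log axis, in the 2 YAP5SA libraries (circles) and the 2 YAP5SA-S94A libraries (squares), ordered by log2 difference. Stars mark the 5 genes of the set, and Asb6, Asb1 and Asb12 at the right lie higher in YAP5SA.

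The promoters of these genes were read from the RefSeq promoter table of build GRCr8, which held 49 of the 63 genes, or 77.8%. That is under the 80% set for a comparison of the set with other promoters, so shares over the set are not given. Windows ran from 250 bases before to 50 bases after the start site, and motifs were searched on both strands. Asb16 and Asb18, on different chromosomes, each hold the core of a MEF2 site, CTA, 4 bases of any kind and TAG. MEF2 factors are the muscle regulators that bind such sites. The same core was found in 3.84% of all 33469 promoters of that length. Lrrc39 was the other matched member with this core, and the matched promoters of Asb14 and Asb15 hold none. For Asb16 and Asb18, the 250 bases before each start are shown because both genes carry the identical 10 bases, which are in capitals. In Asb16 (chr10:87725878-87726127, plus strand) they lie 130 to 121 bases before the start, and in Asb18 (chr9:98043471-98043720, minus strand) 97 to 88 bases before it.
Asb16: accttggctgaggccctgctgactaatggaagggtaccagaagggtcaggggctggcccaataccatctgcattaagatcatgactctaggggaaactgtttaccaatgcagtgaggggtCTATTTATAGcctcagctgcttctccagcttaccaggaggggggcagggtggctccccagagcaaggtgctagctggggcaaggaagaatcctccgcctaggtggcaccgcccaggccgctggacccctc
Asb18: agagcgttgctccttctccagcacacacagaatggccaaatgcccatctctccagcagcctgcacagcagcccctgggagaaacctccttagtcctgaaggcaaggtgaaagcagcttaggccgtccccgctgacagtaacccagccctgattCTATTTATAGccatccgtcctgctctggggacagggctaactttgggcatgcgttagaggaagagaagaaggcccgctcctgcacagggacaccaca
No other searched motif overlapped these bases. A match of letters is a description and does not show that a factor binds there.

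Fbxo32 encodes atrogin-1, the F-box protein of muscle atrophy, and was among the most abundant of the 63. Fbxo32 had 51.2 and 38.4 TPM in YAP5SA, against 211 and 227 TPM in YAP5SA-S94A, 4.88-fold lower. Trim63, the gene of the other classic atrophy ligase MuRF1, is not in the set and fell, with 88.3 and 86.2 TPM in YAP5SA, against 244 and 238 TPM in YAP5SA-S94A (log2 difference -1.46, limma adjusted p = 5.65e-05). Trim50, a ubiquitin ligase of the tripartite motif family, had 1.81 and 0.990 TPM in YAP5SA, against 34.6 and 31.9 TPM in YAP5SA-S94A, the third-largest fold at 23.7. Derl3, a Derlin of endoplasmic reticulum degradation, had 1.72 and 0.723 TPM in YAP5SA, against 12.9 and 11.5 TPM in YAP5SA-S94A. Derl3 overlaps Smarcb1 on the opposite strand over 9127 of its 13965 bases, and Smarcb1 had 95.4 and 80.3 TPM in YAP5SA, against 68.9 and 66.4 TPM in YAP5SA-S94A. Klhl33, a kelch-like protein of the kind that brings substrates to cullin ligases, had 2.87 and 1.34 TPM in YAP5SA, against 19.7 and 15.8 TPM in YAP5SA-S94A. Another kelch gene of muscle, Klhl41, stood on the opposite side at 260 and 307 TPM in YAP5SA, against 31.6 and 35.9 TPM in YAP5SA-S94A. Of 37 listed kelch-like names, 30 had a mean of at least 1 TPM. Of these 30, 13 lay wholly lower in YAP5SA and 8 wholly higher, where 33.8% of all tested names lay wholly lower. The difference from that share was not tested.

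Vesicle genes formed a group of 6. Rab3b is a small GTPase of secretory vesicles. Rab3b had 0.953 and 1.37 TPM in YAP5SA, against 24.4 and 20.6 TPM in YAP5SA-S94A, 19.4-fold lower. Doc2g belongs to the Doc2 family of C2-domain proteins, and had 1.84 and 1.00 TPM in YAP5SA, against 19.5 and 21.2 TPM in YAP5SA-S94A. Both genes were close to the lower end with YAP5SA. Cadps, which primes dense-core vesicles for release, had 1.65 and 1.88 TPM in YAP5SA, against 14.5 and 16.9 TPM in YAP5SA-S94A. Vamp1, a synaptobrevin, had 4.99 and 4.07 TPM in YAP5SA, against 26.6 and 30.1 TPM in YAP5SA-S94A. The gap between the forms in all of these is one that the rule required. Tbc1d10c, a Rab GTPase-activating protein also called carabin, had 0.868 and 0.361 TPM in YAP5SA, against 6.11 and 5.64 TPM in YAP5SA-S94A. Rph3al, an effector of Rab3 and Rab27, had 1.47 and 1.18 TPM in YAP5SA, against 6.62 and 6.47 TPM in YAP5SA-S94A.

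Other vesicle genes differed in both directions. Rab3a, a vesicle GTPase of nerve terminals, fell with 20.6 and 17.3 TPM in YAP5SA, against 37.6 and 30.5 TPM in YAP5SA-S94A (log2 difference -0.81, limma adjusted p = 0.00728). Vamp3, an abundant relative of Vamp1, had overlapping groups, at 117 and 127 TPM in YAP5SA, against 130.5 and 114 TPM in YAP5SA-S94A. Of 14 other vesicle docking genes tested, 5 fell and 1 rose, where 15.5% of all tested names fell and 17.4% rose. The median log2 difference of the 14 was -0.18. The 5 were Unc13b, Rab27a, Rab3a, Rab3d and Syt7. Without YAP5SA-S94A replicate 2 the calls were 3 lower, and without YAP5SA-S94A replicate 1 they were 2 higher. Rims1, the active-zone scaffold, went the other way, with 21.7 and 21.9 TPM in YAP5SA, against 0.238 and 0.199 TPM in YAP5SA-S94A (log2 difference 4.23, limma adjusted p = 2.12e-05). Markers of Schwann cells and neurons summed to 79.6 and 60.1 TPM in YAP5SA, against 43.0 and 42.2 TPM in YAP5SA-S94A, higher where the vesicle genes were lower. Snap25, Syt1 and Th of that list were under 0.5 TPM in every library. The part of such cells was not tested.

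Secreted and immune genes included the most abundant member. Reg3b encodes a secreted C-type lectin of the regenerating protein family, known from injured pancreas, gut and heart. It lies on chr4:110861775-110865015 of rn7. Reg3b had 41.9 and 55.4 TPM in YAP5SA, against 541 and 544 TPM in YAP5SA-S94A, an 11.2-fold lower mean. The remaining Reg genes in the tables, Reg1a, Reg3a, Reg3g and Reg4, did not exceed 1.07 TPM in any library. Reg3b is known to respond to gp130 cytokines. Of the 13 other genes tested on a list of gp130 ligands, receptors and related genes, none fell at a limma adjusted p under 0.05 (1 at an unadjusted p under 0.05), and Timp1 and Lif rose. Over all tested names, 15.5% fell and 17.4% rose. The median log2 difference of these 13 was 0.28. Without YAP5SA replicate 1, 2 were called lower. Lif had 9.95 and 10.6 TPM in YAP5SA, against 3.23 and 4.68 TPM in YAP5SA-S94A (log2 difference 1.2, limma adjusted p = 0.00440).

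The Reg3b promoter (GRCr8 chr4:112419526-112419775, plus strand, from RefSeq) is shown because it holds the TEAD letters GGAATG on its other strand, 71 to 66 bases before the start, where the printed strand reads CATTCC, in capitals. Asb15 (chr4:53986967-53987216, plus strand) holds the same letters 230 to 225 bases before its start. Lsmem1 and Osgin1 were the other matched members with a match. GGAATG was found in 14.2% of all 33469 promoters, so a match is common.
Reg3b: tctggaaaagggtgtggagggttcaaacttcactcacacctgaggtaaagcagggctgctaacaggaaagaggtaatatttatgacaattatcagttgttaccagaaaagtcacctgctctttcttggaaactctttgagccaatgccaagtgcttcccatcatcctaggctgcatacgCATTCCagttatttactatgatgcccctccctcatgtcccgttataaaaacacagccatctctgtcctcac
Asb15: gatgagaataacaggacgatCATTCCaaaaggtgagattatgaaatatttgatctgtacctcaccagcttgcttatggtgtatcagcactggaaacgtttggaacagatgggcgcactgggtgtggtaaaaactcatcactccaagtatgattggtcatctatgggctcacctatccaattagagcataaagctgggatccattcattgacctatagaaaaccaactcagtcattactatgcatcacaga

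Cxcl11, a chemokine that attracts T cells through CXCR3, had 2.29 and 2.59 TPM in YAP5SA, against 36.7 and 47.9 TPM in YAP5SA-S94A. All of its 2776 bases lie within Art3 on the opposite strand, and Art3 had 136 and 137 TPM in YAP5SA, against 385 and 372 TPM in YAP5SA-S94A. Whether counting used the strand is not given in the sources used here, so reads of this pair may not be separated. Cxcl10, another CXCR3 ligand outside the set, fell with 4.25 and 2.199 TPM in YAP5SA, against 14.7 and 15.8 TPM in YAP5SA-S94A (log2 difference -1.99, limma adjusted p = 0.00122). The other chemokines were mixed, with 2 of 13 tested lower and 4 higher, against 15.5% lower and 17.4% higher over all tested names. The median log2 difference of the 13 was near 0. Among the higher ones, Ccl20 had 43.8 and 44.4 TPM in YAP5SA, against 2.89 and 3.49 TPM in YAP5SA-S94A (limma adjusted p = 2.04e-05).

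Gbp1, an interferon-inducible guanylate-binding protein, had 1.55 and 1.34 TPM in YAP5SA, against 18.8 and 19.8 TPM in YAP5SA-S94A. None of the remaining Gbp genes lay wholly lower in YAP5SA, and Gbp6 had 40.7 and 39.9 TPM in YAP5SA, against 27.1 and 25.3 TPM in YAP5SA-S94A. Near-identical copies in this family make the division of reads uncertain. Of 32 interferon-stimulated genes tested, 4 fell and 2 rose, and the others were not called. Over all tested names, 15.5% fell and 17.4% rose, so in the fit of all 4 libraries neither share of this list exceeded the background. Leaving out a library changes that background as well. The median log2 difference of the 32 was -0.28. Usp18, Ifi27 and Isg20 were among the 4. Without YAP5SA replicate 1, and also without YAP5SA-S94A replicate 2, 1 of the 32 was called lower, and without YAP5SA-S94A replicate 1, 7 were. The higher calls were 1 without YAP5SA-S94A replicate 2.

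Dapp1, a phosphoinositide-binding adaptor of lymphocyte signalling, had 2.66 and 1.52 TPM in YAP5SA, against 13.8 and 14.7 TPM in YAP5SA-S94A. Sema7a, a membrane-anchored semaphorin, had 5.22 and 6.44 TPM in YAP5SA, against 25.8 and 26.1 TPM in YAP5SA-S94A. Markers of macrophages and other myeloid cells also stood lower, with summed levels of 580.3 and 555 TPM in YAP5SA, against 866 and 863 TPM in YAP5SA-S94A, and 3 of 10 tested called lower. Lyz2 made up most of that sum, and Csf1r of the same list was higher, with 38.2 and 37.5 TPM in YAP5SA, against 14.6 and 12.9 TPM in YAP5SA-S94A. Of the lymphocyte markers, Cd3d, Cd3e, Cd79b and Ms4a1 were under 0.5 TPM in every library. The part of immune cells in these genes was not tested.

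The metabolic group held 7 members. Pdk2, with a mean of 274 TPM in YAP5SA-S94A next in level to Reg3b, encodes a kinase that switches off pyruvate dehydrogenase, the entry of carbohydrate carbon into the citric acid cycle. Pdk2 had 66.7 and 46.9 TPM in YAP5SA, against 281 and 267 TPM in YAP5SA-S94A. Its relatives differed in both directions. Pdk3 had 54.6 and 55.0 TPM in YAP5SA, against 17.8 and 17.1 TPM in YAP5SA-S94A, while Pdk1 had 21.0 and 23.2 TPM in YAP5SA, against 54.9 and 55.6 TPM in YAP5SA-S94A. Pdk2 was thus the highest of the family with YAP5SA-S94A, and with YAP5SA it was near the level of Pdk3. Pdk4 was at 12.2 and 13.3 TPM in YAP5SA, against 16.2 and 17.3 TPM in YAP5SA-S94A.

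Acacb, the acetyl-CoA carboxylase that makes malonyl-CoA at the mitochondrial surface, had 15.5 and 12.4 TPM in YAP5SA, against 65.5 and 63.8 TPM in YAP5SA-S94A. Malonyl-CoA inhibits carnitine palmitoyltransferase, the entry step of fatty acids into mitochondria. The cytosolic carboxylase Acaca showed no such gap, with 11.9 and 10.4 TPM in YAP5SA, against 9.54 and 9.85 TPM in YAP5SA-S94A. Plin4, a lipid droplet coat protein, had 4.31 and 2.93 TPM in YAP5SA, against 20.9 and 22.5 TPM in YAP5SA-S94A. Plin5 stood low beside it, with 0.51 and 0.37 TPM in YAP5SA, against 3.63 and 4.14 TPM in YAP5SA-S94A. Plin2, the abundant droplet protein, had 213 and 189 TPM in YAP5SA, against 285 and 292 TPM in YAP5SA-S94A.

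Fatty acid uptake and oxidation genes held no member of the set, yet 24 of the 30 tested fell and 1 rose. Their median log2 difference was -0.74. Over all tested names, 15.5% fell and 17.4% rose. Cpt1b, the muscle carnitine palmitoyltransferase, had 34.1 and 30.3 TPM in YAP5SA, against 125 and 127 TPM in YAP5SA-S94A (log2 difference -1.94, limma adjusted p = 4.21e-05). Acsl1, which activates fatty acids to their CoA esters, had 69.7 and 68.1 TPM in YAP5SA, against 249.5 and 250.3 TPM in YAP5SA-S94A (log2 difference -1.84, limma adjusted p = 2.87e-05). Both lay just under the fold that the rule asks for. Of 26 glycolysis, glycogen and creatine kinase genes, 12 fell and 5 rose (3 without YAP5SA-S94A replicate 2), with a median log2 difference of -0.44. Eno3, the muscle enolase, had 122 and 116 TPM in YAP5SA, against 397 and 397 TPM in YAP5SA-S94A (limma adjusted p = 3.08e-05).

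Adss1, the muscle adenylosuccinate synthase of the purine nucleotide cycle, had 18.1 and 11.9 TPM in YAP5SA, against 113 and 111 TPM in YAP5SA-S94A, 7.45-fold lower. Dhrs7c, a dehydrogenase of the sarcoplasmic reticulum, had 8.04 and 4.41 TPM in YAP5SA, against 48.7 and 39.5 TPM in YAP5SA-S94A. Its YAP5SA replicates differed by more than 1.5-fold, as those of 18 members did, and its distance from the YAP5SA-S94A values was required by the rule. Cmbl, a carboxymethylenebutenolidase-like hydrolase, had 1.24 and 0.775 TPM in YAP5SA, against 16.9 and 16.05 TPM in YAP5SA-S94A, the widest fold of the metabolic group at 16.4. Pla2g7, which hydrolyses platelet-activating factor, was 5.63-fold lower, with means of 13.1 TPM in YAP5SA and 73.5 TPM in YAP5SA-S94A.

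Nuclear receptors were led by Rxrg, the retinoid X receptor gamma found in skeletal and heart muscle. Rxrg had 4.55 and 3.998 TPM in YAP5SA, against 54.9 and 49.2 TPM in YAP5SA-S94A, 12.2-fold lower. It lies on chr13:79743430-79785173 of rn7. Rxra, another receptor of that family, fell, with 26.3 and 19.1 TPM in YAP5SA, against 57.4 and 55.1 TPM in YAP5SA-S94A (log2 difference -1.29, limma adjusted p = 0.00116). Rxrb had 27.7 and 19.3 TPM in YAP5SA, against 29.0 and 28.7 TPM in YAP5SA-S94A. With YAP5SA-S94A, Rxrg was therefore close to the level of Rxra, and with YAP5SA it was the lowest of the family. Of 14 other retinoid genes tested, 3 fell and 2 rose, with 5 lower without YAP5SA replicate 1. Over all tested names, 15.5% fell and 17.4% rose. The median log2 difference of the 14 was 0.22, and -0.11 among genes with a mean of at least 5 TPM.

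Nr0b2, the small heterodimer partner that represses other nuclear receptors, had 7.17 and 5.29 TPM in YAP5SA, against 37.4 and 37.4 TPM in YAP5SA-S94A. Nfatc2, a calcineurin-regulated transcription factor, was 4.88-fold lower, while Nfatc1 had 5.87 and 4.96 TPM in YAP5SA, against 5.76 and 5.41 TPM in YAP5SA-S94A. Smad9, a BMP-pathway Smad, had 2.78 and 2.50 TPM in YAP5SA, against 11.5 and 12.3 TPM in YAP5SA-S94A. Smad3, of the TGF-beta branch, lay on the other side, with 64.7 and 54.0 TPM in YAP5SA, against 28.0 and 27.4 TPM in YAP5SA-S94A.

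Signalling genes formed the largest group, with 11 members. Ptprr and the Dusp13 genes encode phosphatases, Ptprr one that acts on ERK-type kinases. Ptprr had 0.591 and 0.531 TPM in YAP5SA, against 10.98 and 10.9 TPM in YAP5SA-S94A. Dusp13b had 0.401 and 0.388 TPM in YAP5SA, against 7.23 and 6.73 TPM in YAP5SA-S94A. Dusp13a was listed at 0 in both YAP5SA libraries, against 6.95 and 9.56 TPM in YAP5SA-S94A, and has no fold. These phosphatase genes were close to silent with YAP5SA. Dusp13a and Dusp13b are neighbours on chromosome 15, 5.05 kb apart, and nearly all of Dusp13a overlaps Samd8 on the opposite strand, so its reads are uncertain.

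Sctr, the secretin receptor, had 0.671 and 0.307 TPM in YAP5SA, against 5.89 and 6.13 TPM in YAP5SA-S94A. Gnb3, a G protein beta subunit, had 5.44 and 3.33 TPM in YAP5SA, against 29.5 and 29.4 TPM in YAP5SA-S94A. Gnb1, another beta subunit, pointed the other way, with 231 and 237 TPM in YAP5SA, against 162 and 157 TPM in YAP5SA-S94A. Gnb2, with the highest mean of the family in both forms, had overlapping groups. It was at 342 and 225 TPM in YAP5SA, against 273 and 245 TPM in YAP5SA-S94A. Gpr22, an orphan receptor of heart and brain, and Gpr157 were 6.08-fold and 5.77-fold lower. Gpr22 lies wholly within Cog5 on the opposite strand. Gprin3, a G protein interacting protein, was 5.28-fold lower. Tesc, tescalcin, a calcium-binding partner of the sodium-proton exchanger, had 36.7 and 36.8 TPM in YAP5SA, against 214 and 187 TPM in YAP5SA-S94A. Car8, a carbonic anhydrase relative without catalytic activity that binds the IP3 receptor, had 4.46 and 7.18 TPM in YAP5SA, against 31.5 and 30.1 TPM in YAP5SA-S94A. Of 21 genes of adrenergic, muscarinic and cyclic nucleotide signalling, none of which is in the set, 10 fell and 6 rose. Their median log2 difference was -0.54, and the risen ones included Nppa and Nppb. Over all tested names, 15.5% fell and 17.4% rose.

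Kdr encodes a VEGF receptor and is itself on the list of endothelial markers. Kdr had 3.97 and 3.33 TPM in YAP5SA, against 21.3 and 19.9 TPM in YAP5SA-S94A. A sum without Kdr was added after seeing the data. The other 9 endothelial markers came to 29.4 and 30.7 TPM in YAP5SA, against 20.7 and 22.0 TPM in YAP5SA-S94A. With Kdr the sums were 33.4 and 34.0 TPM in YAP5SA, against 42.0 and 41.9 TPM in YAP5SA-S94A. Kdr was the only one of the 7 tested that was called lower. Pecam1 had 1.45 and 1.71 TPM in YAP5SA, against 1.48 and 2.07 TPM in YAP5SA-S94A. Tek, the highest of the other 9 in YAP5SA, was called higher, with 10.2 and 13.04 TPM in YAP5SA, against 3.57 and 3.79 TPM in YAP5SA-S94A. Cdh5 had 0.950 and 1.83 TPM in YAP5SA, against 2.55 and 2.19 TPM in YAP5SA-S94A, and was not called. Cldn5 was listed at 0 in all 4 libraries, and Vwf did not exceed 0.5 TPM. The part of endothelial cells in the Kdr difference was not tested.

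Muscle structure genes were among the more abundant and had the narrowest folds, 4.24 to 7.30. Txlnb, taxilin beta, a muscle-enriched protein, had 29.3 and 31.1 TPM in YAP5SA, against 127 and 129 TPM in YAP5SA-S94A. Clip4, which carries microtubule-binding CAP-Gly domains, had 23.9 and 17.9 TPM in YAP5SA, against 118 and 123 TPM in YAP5SA-S94A. Clip2 of the same family lay on the other side, with 22.3 and 19.0 TPM in YAP5SA, against 11.6 and 11.5 TPM in YAP5SA-S94A. Hhatl, a relative of Hedgehog acyltransferase abundant in striated muscle, had 23.2 and 20.3 TPM in YAP5SA, against 120.2 and 108 TPM in YAP5SA-S94A. The replicates of each form lay close beside these gaps.

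Cmya5, myospryn, a large muscle protein at the costamere, had 5.14 and 5.68 TPM in YAP5SA, against 36.8 and 42.2 TPM in YAP5SA-S94A. Lrrc39, myomasp, a protein of the sarcomeric M-band, had 12.7 and 14.7 TPM in YAP5SA, against 78.9 and 81.5 TPM in YAP5SA-S94A. Lrrc14b and Lrrc2, leucine-rich repeat proteins, were 6.08-fold and 4.78-fold lower. Lrrc10, a heart-specific relative outside the set, fell, with 62.96 and 55.9 TPM in YAP5SA, against 221 and 212 TPM in YAP5SA-S94A (log2 difference -1.85, limma adjusted p = 4.15e-05). Of the 38 other sarcomere and M-band genes tested, 18 fell and 7 rose (4 without YAP5SA-S94A replicate 2), with a median log2 difference of -0.29. Myom2, another M-band gene, had 105 and 83.5 TPM in YAP5SA, against 385 and 391 TPM in YAP5SA-S94A (limma adjusted p = 5.17e-05). Of 27 calcium handling genes, 11 fell (7 without YAP5SA-S94A replicate 2) and 5 rose, with a median log2 difference of -0.34. Among the markers used to check the cell type, Myh6, Tnni3, Pln, Ryr2, Myl7 and Tnnt2 also fell, while Actc1 and Nppa rose. Over all tested names, 15.5% fell and 17.4% rose.

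**Figure D4:**
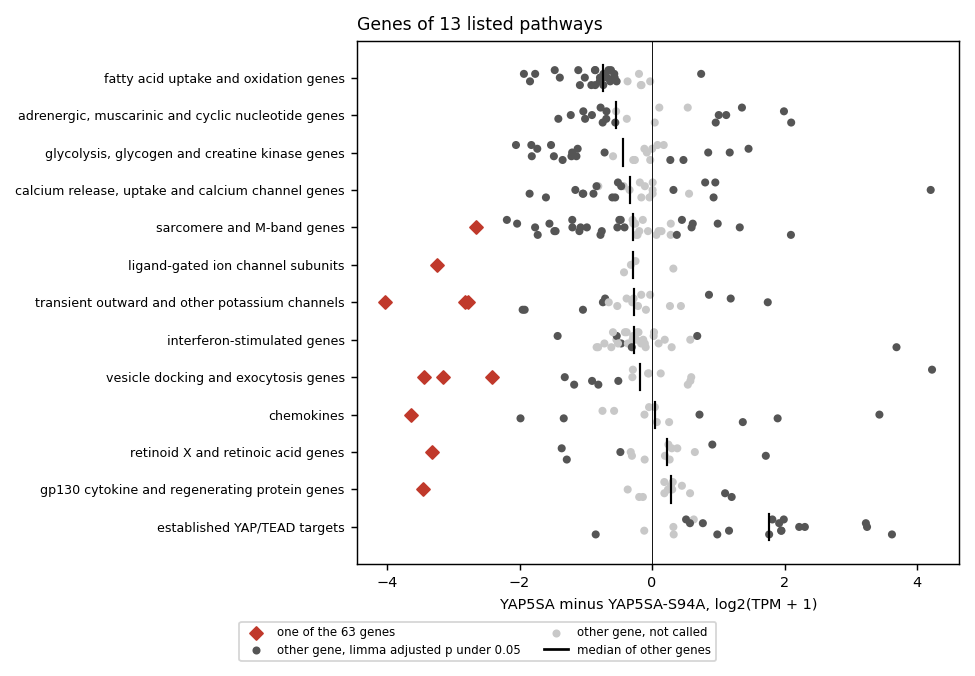
Difference in log2(TPM + 1), YAP5SA minus YAP5SA-S94A, for genes of 13 pathway lists, with members of the set as red diamonds, other genes called by limma in dark grey and the rest in light grey. Black ticks are medians without the members, from -0.74 for fatty acid genes to 1.77 for established YAP/TEAD targets.

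The remaining 9 genes have roles outside these groups or none of which the role is sure. Atp6ap1l, a relative of an accessory subunit of the vacuolar proton pump, had 7.38 and 10.2 TPM in YAP5SA, against 99.5 and 109 TPM in YAP5SA-S94A, and shares 38 bases with the abundant Rps23 on the opposite strand. Lsmem1, a leucine-rich single-pass membrane protein, had 16.1 and 15.9 TPM in YAP5SA, against 64.9 and 64.5 TPM in YAP5SA-S94A. Pcare, known from photoreceptor cilia, had 6.83 and 4.47 TPM in YAP5SA, against 40.2 and 37.3 TPM in YAP5SA-S94A. Pcare lies 52.1 kb from Clip4 on chromosome 6 with no tested gene between them. Piwil2, an Argonaute protein of the piRNA pathway in the germ line, was 8.61-fold lower at the low levels given above. Podxl, a sialomucin, Osgin1, an oxidative stress induced gene, and Tmem179, a membrane protein, were 4.59-fold, 4.90-fold and 5.75-fold lower. Noncoding members were the lncRNA gene Tincr, 5.32-fold lower, and the small nucleolar RNA gene Snord123, 6.23-fold lower. Snord123 is 70 bases long and lies inside an expressed gene on the same strand, so its reads cannot be assigned with certainty.

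By position, the 63 genes were spread over the genome, with 9 on chromosome 2, 7 on chromosome 4 and 6 on chromosome 6. Another member lay within 1 megabase of 14 of the 63, or 22.2%, while 7.96% of the other 13312 placed names had a member that near. No test was made of this difference. The 14 fall into 7 pairs: Dusp13a with Dusp13b, Clip4 with Pcare, Adss1 with Tmem179, Doc2g with Tbc1d10c, Gnb3 with Vamp1, Plin4 with Tincr, and Cmbl with Snord123. The first pair is 1 locus, and the last is 716 kb apart.

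The rule was also applied to 3 libraries at a time and then read in the library left out. A gene that meets it there too meets the full rule. The 63 found each time are therefore the members themselves and give no independent check. Chosen without YAP5SA replicate 1, 116 named genes met the rule, and 63 of them, or 54.3%, also met it in that library. Over these 116, the YAP5SA-S94A mean, which took part in the choice, was a median of 4.25 times the left-out value. Chosen without YAP5SA replicate 2, 63 of 76 met it. Chosen without YAP5SA-S94A replicate 1 or 2, 63 of 79 and 63 of 76 met it. In the library left out, 1 of the 79 genes chosen without YAP5SA-S94A replicate 1 overlapped the other form, and 0 of the genes chosen without each of the other libraries did. YAP5SA replicate 1 was therefore the library that held the count down. Of the 63 genes, 44 were lower in YAP5SA replicate 2 than in replicate 1, a direction shared by 61.0% of all tested names, and replicate 2 was the shallowest library.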

How the data were processed

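RNA-seq of 4 libraries was analysed, 2 per YAP form. Reads were processed by the authors with fastp, HISAT2 2.2.1 and StringTie 2.2.1 on rat build rn7, per the submitters' processing notes; settings and the use of strand in counting are not given in the sources used here. Each deposited table held 40903 entries. TPM, the main unit, was computed by the authors. FPKM, likewise a deposited column, served as an alternative. The Coverage column, per the file headers, is the read coverage per base, a signal not scaled for depth; its ratio to FPKM gave the aligned gigabases, and the median over the 63 genes was 4.68 and 2.91 reads per base in YAP5SA, against 27.9 and 28.6 in YAP5SA-S94A. Gene counts were not used here.

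TPM was summed over entries that share a name. Names averaging at least 1 TPM entered a fit of log2(TPM + 1), which understates differences of low genes, with limma 3.58.1 in R 4.3.3 and its intensity trend (residual degrees of freedom 2, prior 5.09), Benjamini-Hochberg adjustment over all of them and a threshold of 0.05. An exact permutation of 2 against 2 samples cannot give a two-sided p under 0.333. The method was checked on simulated data. Other steps used pandas 2.3.3 and numpy 2.4.6 in Python 3.11.15, with matplotlib 3.10.9 for plots. Names, gene types and promoters came from RefSeq (GRCr8), and coordinates of genes from the deposited tables.

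The members, the pathway and marker lists and the tests were chosen with earlier results of these data known, and the role groups and name families after the members were seen. Members could all be named, except 1 that is not reported here. Values in every library are given for the most abundant members, those with the largest folds and up to 4 of each role group, for the genes beside the thresholds, and for up to 4 called genes of each list with the smallest p. Other genes, relatives of members among them, were named after their values were seen. Same-numbered replicates are not stated to share a culture, and numbers were not used to pair them.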

Additional observations from a re-analysis of the deposited data

How the results depend on the processing

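The set rests on its thresholds and on scaling. It held 125 genes at a fold of 3, 25 at a fold of 6 and 39 when FPKM, which scales each library differently, replaced TPM. With each library left out it held 76 to 116. It stayed within 1.5 times of 63 with a minimum of 2 or 10 TPM (85 and 50), with the mitochondrial chromosome left out (71), with a median-of-ratios scaling (60) and with entries kept apart (63).

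There were 2083 genes called lower in YAP5SA and 2337 genes called higher in YAP5SA. With no filter on low values the calls were 255 lower and 443 higher. Leaving out each library gave 1312 to 2739 lower, with 1312 without YAP5SA-S94A replicate 1 and 1314 without replicate 2, and 1700 to 2610 higher. Counts of list genes without a library stand beside these changed totals, not beside the shares of the main fit. With the replicate number as a block, 2593 were called lower and 2726 higher. Replicate 1 deviations of the forms correlated at 0.101, a single value for 2 pairs, so the shared numbers do not show a pairing.

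No called difference changed its sign. List medians near 0 did: that of retinoid genes was 0.22, and -0.11 with a mean of at least 5 TPM, and that of chemokines was 0.04, and -0.07 to -0.0041 with mitochondrial genes left out, under quantile normalization, and without YAP5SA replicate 1, YAP5SA replicate 2 or YAP5SA-S94A replicate 1. Of the named results and list counts, 929 stayed within the limits for no change, 55 counts or medians moved and 33 calls were lost, 27 of them with no filter. The calls of Usp18 (without either YAP5SA library), Ifi27 (without either YAP5SA-S94A library) and Tap1 (without YAP5SA-S94A replicate 2) also rest on single libraries. For the 10 members under 1 TPM in both YAP5SA libraries, depth limits the fold. The causes were not tested.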
